A study of Mus musculus with 38 samples.

Results

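Acetylation of lysine 18 of histone H3 (H3K18ac) was mapped in mouse bone marrow-derived macrophages, and the regions described here are the H3K18ac peaks found in M1 macrophages where unstimulated (M0) macrophages had no H3K18ac peak. A peak of the M1 list counted as gained when it shared not a single base with any peak of the M0 list. By that rule 12499 of the 42237 M1 peaks were gained (29.6%), and they covered 19.3 Mb, or 14.2% of all bases in M1 peaks. The other 29738 M1 peaks, which overlapped an M0 peak, covered 117 Mb. In the opposite direction 9872 of 41493 M0 peaks (23.8%) overlapped no M1 peak.

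The macrophages came from C57BL/6 mice, were grown from bone marrow and were left unstimulated (M0, 0 h) or were stimulated with LPS (lipopolysaccharide) at 5 ng/ml together with IFNg (interferon-gamma) at 12 ng/ml. Chromatin was taken from M0 and, after 24 h of stimulation, from M1 cells, with 1 library each for H3K18ac, for lactylation of the same lysine (H3K18la) and for input. RNA was sequenced at 0, 4, 8, 16 and 24 h, with 4 libraries per time, and at 8, 16 and 24 h in stimulated cells that also received lactic acid 4 h after LPS and IFNg (LA 8h, LA 16h and LA 24h, 4 libraries each). The labels do not tie RNA replicates to different mice or cultures, and p-values measure only the spread between these libraries. No ChIP-seq library had a replicate, so presence or absence of a peak has no replicate check, and the regions were chosen on the M1 and M0 H3K18ac values themselves. The widths, enrichments and q-values of the H3K18ac peaks below are therefore a description.

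H3K18ac is written on nucleosomes by the acetyltransferases p300 and CBP and marks active promoters and enhancers. In macrophages, LPS acts through Toll-like receptors on NF-kB, AP-1 and interferon regulatory factors (IRF), and IFNg acts through JAK kinases on STAT factors. These factors act on an enhancer landscape that is set up in resting macrophages largely by PU.1 and C/EBP factors. Enhancers that carry no active mark in resting cells and acquire it on stimulation are a known feature of inflammatory activation.

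The gained peaks were mostly away from start sites, but 171 held a listed transcription start site of a protein-coding gene, at 169 genes. Promoters of 7 of these genes are printed because their RNA rose most or because they carry a match to several of the motifs described below. The sequences are from RefSeq (GRCm38.p6, the mm10 build of the peak lists), run 5′ to 3′ along the gene from 250 bases before to 50 bases after a start site, and have in capitals the letters that match any of the motifs searched. They are Lcn2 (chr2:32387690-32387989, minus strand), Marco (chr1:120504975-120505274, minus), Upp1 (chr11:9117758-9118057, plus), AA467197 (chr2:122637637-122637936, plus), Cp (chr3:19956999-19957298, plus), Cxcl9 (chr5:92328030-92328329, minus) and Ifi209 (chr1:173630609-173630908, plus).
Lcn2: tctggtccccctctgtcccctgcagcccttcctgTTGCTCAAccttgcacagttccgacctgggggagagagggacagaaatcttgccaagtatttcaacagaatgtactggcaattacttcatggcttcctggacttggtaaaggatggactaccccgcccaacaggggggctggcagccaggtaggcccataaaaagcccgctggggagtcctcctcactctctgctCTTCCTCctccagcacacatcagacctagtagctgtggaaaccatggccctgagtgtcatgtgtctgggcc
Marco: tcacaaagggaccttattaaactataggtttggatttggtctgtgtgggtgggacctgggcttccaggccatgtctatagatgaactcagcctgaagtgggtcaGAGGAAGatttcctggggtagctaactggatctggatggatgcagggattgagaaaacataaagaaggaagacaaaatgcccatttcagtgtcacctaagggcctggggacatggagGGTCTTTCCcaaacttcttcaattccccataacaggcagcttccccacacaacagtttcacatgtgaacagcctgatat
Upp1: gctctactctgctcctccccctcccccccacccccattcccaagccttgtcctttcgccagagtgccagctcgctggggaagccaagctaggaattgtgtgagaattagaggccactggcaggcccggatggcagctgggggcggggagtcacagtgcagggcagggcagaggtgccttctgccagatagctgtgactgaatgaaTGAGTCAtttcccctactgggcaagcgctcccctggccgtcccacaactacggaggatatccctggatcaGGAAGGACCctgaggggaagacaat
AA467197: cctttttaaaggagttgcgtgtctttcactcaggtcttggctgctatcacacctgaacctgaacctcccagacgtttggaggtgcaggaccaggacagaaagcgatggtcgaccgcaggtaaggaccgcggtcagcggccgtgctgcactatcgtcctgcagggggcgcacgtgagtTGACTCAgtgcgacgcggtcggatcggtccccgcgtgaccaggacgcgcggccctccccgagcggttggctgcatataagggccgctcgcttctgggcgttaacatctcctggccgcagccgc
Cp: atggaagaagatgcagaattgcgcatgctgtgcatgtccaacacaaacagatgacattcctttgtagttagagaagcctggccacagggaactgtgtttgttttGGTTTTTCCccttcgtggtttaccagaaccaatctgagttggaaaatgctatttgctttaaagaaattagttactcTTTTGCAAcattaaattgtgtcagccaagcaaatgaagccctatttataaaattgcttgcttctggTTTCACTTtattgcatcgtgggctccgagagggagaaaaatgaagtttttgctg
Cxcl9: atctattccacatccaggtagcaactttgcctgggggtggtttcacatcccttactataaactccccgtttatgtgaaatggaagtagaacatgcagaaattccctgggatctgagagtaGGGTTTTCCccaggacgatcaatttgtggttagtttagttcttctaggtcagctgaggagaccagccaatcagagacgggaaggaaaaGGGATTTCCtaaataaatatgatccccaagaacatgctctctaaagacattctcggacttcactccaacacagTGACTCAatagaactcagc
Ifi209: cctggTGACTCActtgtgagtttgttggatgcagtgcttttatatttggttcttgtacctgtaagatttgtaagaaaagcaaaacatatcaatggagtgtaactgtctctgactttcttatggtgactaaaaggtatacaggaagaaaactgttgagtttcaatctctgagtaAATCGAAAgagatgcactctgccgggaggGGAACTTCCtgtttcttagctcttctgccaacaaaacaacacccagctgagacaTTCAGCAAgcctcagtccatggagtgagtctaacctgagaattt

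Motifs were searched as plain letters on both strands, with N for any base and with overlaps allowed: AP-1 as TGANTCA, NF-kB as GGNNNTTCC, IRF as AANNGAAA, STAT as TTCNNNGAA, PU.1 as GAGGAAG and C/EBP as TTGCNNAA. Positions are those of the first letter of a match along the gene, counted from the start site. The Upp1 promoter held an AP-1 match at -45 and an NF-kB match at 26, and AA467197 an AP-1 match at -73. The Cxcl9 promoter held NF-kB matches at -130 and -42 and an AP-1 match at 32. In Ifi209 there were matches to AP-1 (-245), IRF (-77), NF-kB (-48) and C/EBP (7). In Marco there were matches to PU.1 (-146) and NF-kB (-29), in Lcn2 to C/EBP (-216) and PU.1 (-21), and in Cp to NF-kB (-146), C/EBP (-70) and IRF (-4). Fabp7, another gene with a gained peak at its start, had no match in its window. Upp1 and Cp have further listed starts in the same peaks, with other matches. The Cp start at 19957054 had only an AP-1 match (-177). The Upp1 start at 9118103 had AP-1 (-140), NF-kB (-70) and IRF (-31), and that at 9118507 IRF (-143) and NF-kB (-121) but no AP-1.

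Across all such promoters, the letters of AP-1 stood in 13.2% (95% Wilson interval 9.12 to 18.8, 25 of 189 promoters), against 4.95% of 9341 promoters whose start lay in another M1 H3K18ac peak, 8.51% of 11733 promoters in no M1 peak and 6.99% of all 21263 promoters. STAT letters stood in 15.3% (10.9 to 21.2), against 7.08%, 8.06% and 7.69%. C/EBP letters stood in 16.4% (11.8 to 22.3), against 8.07%, 11.7% and 10.2%. These motifs were thus more frequent at gained starts than in the other sets, with intervals apart from that of promoters in other M1 peaks. For C/EBP the interval overlapped that of promoters in no M1 peak (11.2 to 12.3). IRF letters stood in 26.98% (21.2 to 33.7) of the gained promoters, above the 17.7% of promoters in other M1 peaks but with an interval that holds the 24.9% of promoters in no M1 peak; the share over all promoters was 21.8%. For NF-kB (19.6%, 14.6 to 25.8, against 23.1%, 16.1% and 19.2%) and PU.1 (14.3%, 10.01 to 19.99, against 13.8%, 13.4% and 13.6%) the interval of the gained promoters held the share of all promoters. Base composition moved with these shares. Gained promoters had a median of 7 CG dinucleotides and 53.3% G or C, against 22 and 61.3% in other M1 peaks and 5 and 51.3% in none, and the part of composition in the motif shares was not tested. Some genes count with several start sites, and the intervals cover counting error only.

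**Figure D1:**
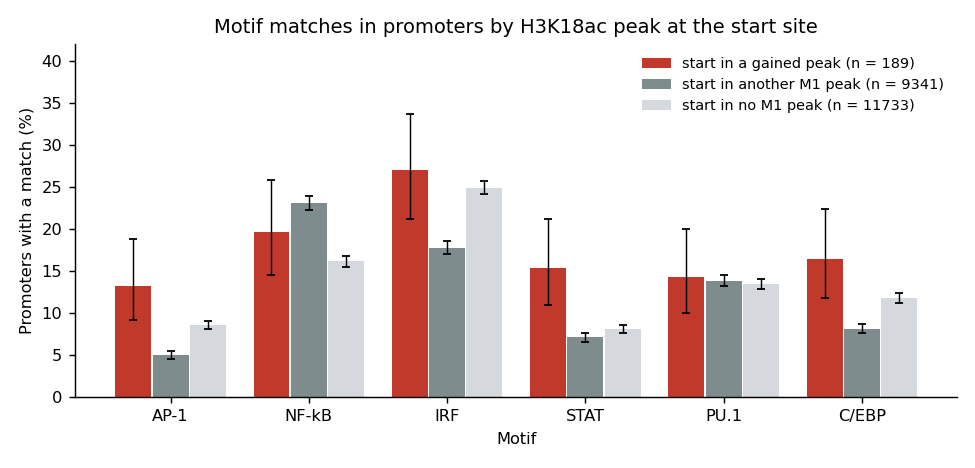
Share of promoters (%) that match each motif, for start sites in a gained M1 H3K18ac peak (red, n = 189), in another M1 peak (grey, n = 9341) or in no M1 peak (light grey, n = 11733), with 95% Wilson intervals. AP-1, IRF, STAT and C/EBP are highest in red, and NF-kB is highest in grey.

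MicroRNA hairpins also overlapped gained peaks, counted by any shared base. These were 11 of the 1005 hairpins of the RefSeq table, some only partly covered, while 144 overlapped other M1 peaks. Mir155 and Mir147 are shown because both peaks also overlapped an M1 H3K18la peak and because miR-155 is a known inducible microRNA of LPS-stimulated macrophages. Seeds (bases 2 to 8) are in capitals.
miR-155-5p: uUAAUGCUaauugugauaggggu
miR-155-3p: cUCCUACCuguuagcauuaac
miR-147-5p: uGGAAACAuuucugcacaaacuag

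The Mir155 hairpin (chr16:84714140-84714204, plus strand) lay in a gained peak 18367 bp wide (fold enrichment 4.41, -log10 q 7.46). Its host transcript Mir155hg, chosen after its values were seen, stood at 0 RPKM (reads scaled to gene length and library size) in 3 libraries and 0.00813 in the fourth at 0 h. At 4 h it stood at 2.96, 2.98, 2.99 and 3.78 RPKM and at 24 h at 0, 0.0182, 0.0950 and 0.0955 RPKM. All 4 h libraries lay above all 0 h and 24 h libraries. Mir155hg passed the expression minimum for testing (1 RPKM in 4 or more libraries) through stimulated libraries alone, so its changes and p-values are a description. The limma log2 fold change, on the log2(RPKM + 1) scale used throughout, was 2.06 at 4 h (SE 0.06, adjusted p = 6.8e-25) and 0.07 at 24 h (adjusted p = 0.27), the time at which the chromatin was taken; with a pseudocount of 0.1 it passed at 24 h, at 0.52. Mir147 (chr2:122640803-122640881, plus strand) lay in the 4978-bp peak that also held the start of AA467197. The hairpins of Mir199a-1, Mir149, Mir192 and Mir194-2 lay in gained peaks as well, and of these only the Mir199a-1 peak overlapped an M1 H3K18la peak.

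Gained peaks were narrower and weaker than the other M1 peaks. Their median width was 1024 bp (quartiles 581 and 1812), against 2072 bp, and their median fold enrichment over the caller's background was 3.14 (2.95 and 3.45), against 3.89. The median -log10 q was 3.05 against 5.41. A -log10 q of 5 or more was reached by 1553 gained peaks (12.4%) and by 54.1% of the others. The peaks found only in M0 were narrow and weak as well. Their medians were 855.5 bp in width, 3.36 in fold enrichment and 3.31 in -log10 q, and 15.7% reached a -log10 q of 5. The widest gained peaks nonetheless reached 25705 bp.

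The rule has an edge that can be seen in the lists. The nearest M0 peak lay a median of 6888 bp away (quartiles 2885 and 18725), 74 gained peaks had one within 100 bp, 505 within 1000 bp and 89.6% within 50 kb. On the other side, 144 M1 peaks overlapped M0 peaks by less than 100 bp and 410 by less than 10% of their own width, and these do not count as gained. Just inside the rule stood a peak 30594 bp from the start of Batf (chr12:85655088-85656126, fold enrichment 2.93), 2 bp from an M0 peak, and one near Sema4d (chr13:51709486-51710120, 2.87), 4 bp away. Just outside stood a peak near Hhex (chr19:37441344-37442483, 2.93) with 2 shared bases and one near Zc3h12c (chr9:52153500-52154792, 3.19) with 5. The 5 peaks nearest to the edge had fold enrichments of 2.70 to 2.94 inside and 2.93 to 3.19 outside.

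The strongest gained peak stood 26886 bp from the start of Jak2, the kinase gene downstream of the interferon-gamma receptor (chr19:29221577-29224917, fold enrichment 9.42, -log10 q 31.0). Next came a peak within Crkl, an adaptor protein gene (chr16:17465483-17471081, 8.78), and one over the start of Gm12185, an interferon-inducible GTPase gene (chr11:48925636-48929036, 8.07). The last of the top 10 lay near Gbp3, a guanylate-binding protein gene (chr3:142573326-142579783, 7.56). The others of the top 10 lay within Tcea1, Uhrf1bp1, Rims2, Hectd4, Akap7 and Carmil1. All 10 overlapped an M1 H3K18la peak and none an M0 one, and 94 of the top 100 overlapped an M1 H3K18la peak. The 5 widest stood near Lmo4, Il31, Diras2, Pax4 and Nampt, at 24742 to 25705 bp, and all overlapped an M1 H3K18la peak.

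Gained peaks were also clustered. Windows of 100 kb held up to 19, over Tmem178 (chr17:80873690-80972616, 24490 bp covered), with a top fold enrichment of 3.66 and no M1 H3K18la peak. The next, a window over Rcl1 on the side of Jak2 (chr19:29139053-29234362), held 18 peaks, with the strongest gained peak of all and 2 that overlapped M1 H3K18la. A window over Slco3a1 (chr7:74540803-74631771) held 16, and windows on chromosome 13 held 15 and 14 with no M1 H3K18la overlap. By chromosome the gained share of M1 peaks ran from 26.1% (chromosome 7) to 35.9% (chromosome 13) among the autosomes, and was 29.1% on X.

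Positions differed from those of the other M1 peaks, measured against the start sites listed in the RefSeq promoter table, which does not hold a start for every gene. A protein-coding start site lay within 1000 bp of 292 gained peaks (2.34%, 95% Wilson interval 2.09 to 2.62), against 26.2% (25.7 to 26.7) of the others and 6.30% (5.84 to 6.80) of the peaks found only in M0. The median distance to a start was 36202 bp in gained, 18106 bp in other M1 and 41961 bp in M0-only peaks. Gained peaks overlapped the span of a protein-coding gene in 56.6% (55.8 to 57.5), against 68.5% of the others and 54.3% of M0-only peaks. The intervals of the shares at start sites do not overlap between these sets, and they cover counting error within 1 library per state only.

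Lactylation of the same lysine was seldom called at the gained peaks. Only 611 of the 12499 (4.89%, 4.52 to 5.28) overlapped an M1 H3K18la peak, against 12028 (40.4%, 39.9 to 41.0) of the other M1 peaks and 108 (1.09%, 0.91 to 1.32) of the M0-only peaks. From the side of the other mark, 646 of 16139 M1 H3K18la peaks (4.00%) overlapped a gained H3K18ac peak, and 90.7% overlapped another M1 H3K18ac peak. M0 H3K18la peaks met 60 gained peaks (0.480%, 0.373 to 0.617), or 0.274% of 21885 M0 H3K18la peaks, and met 58.8% of the other M1 peaks. They met 1122 of the M0-only H3K18ac peaks (11.4%, 10.75 to 12.01). Against the H3K18la list of its own state, the share was thus higher for M0-only peaks than for gained peaks. Of the gained peaks 597 overlapped H3K18la in M1 only, 14 in both states, 46 in M0 only and 11842 in neither. The lactylated part covered a median of 23.8% of such a gained peak.

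The overlap depended on how strong the H3K18ac peak was. Among gained peaks it was 0.991% (59 of 5954) at a -log10 q of 2 to 3, 1.96% at 3 to 5, 18.5% at 5 to 10, 79.5% (155 of 195) at 10 to 15 and 95.2% (60 of 63) at 15 or more. The other M1 peaks in the same bands stood at 2.81%, 9.10%, 51.0%, 94.8% and 99.7%, above the gained peaks in each. Width showed the same order, from 1.19% of gained peaks under 500 bp to 34.6% of those of at least 4000 bp, against 5.79% and 64.1%. Away from start sites (over 1000 bp) the shares for peaks of at least 4000 bp were 33.9% (251 of 740) and 54.9%. The H3K18la libraries were shallower, with 21.77 M (M0) and 21.01 M (M1) reads in the mouse genome against 36.58 M and 32.95 M for H3K18ac, and the part of depth in the overlap was not tested.

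**Figure D2:**
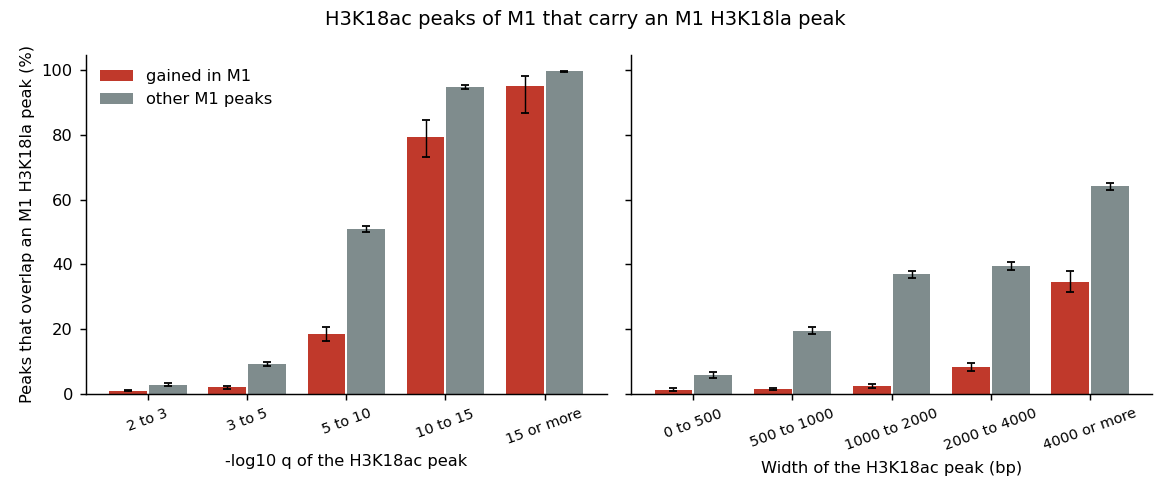
Share of M1 H3K18ac peaks (%) that overlap an M1 H3K18la peak, by -log10 q (left) and by width in bp (right), for gained peaks (red) and other M1 peaks (grey), with 95% Wilson intervals. The share rises with strength to 95.2% of gained and 99.7% of other peaks, and red is below grey in every band.

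The spike-in table gives 652.8 mouse reads per spike-in read for M1 H3K18ac and 696.9 for M0 H3K18ac, and 148.3 and 70.2 for H3K18la. Each value comes from a single library. RNA depth was estimated from the steps between low RPKM values, taken as whole reads. Libraries held about 58.3 to 99.9 M reads in listed genes, the absolute scale resting on estimated gene lengths. Gene lengths and depths were fitted to these steps in 1083 genes, kept because their values fell on them. That 100% of 18505 low values of these genes lay within 0.1 of a whole read follows from this fit and is no check of it. All 10 macrophage markers were at 1 RPKM or more at 0 h and 24 h, with Lyz2, C1qb and Cd68 at the front. No lymphocyte, erythroid or mast cell marker is listed in the table, and the listed dendritic cell markers (1 of 6) and stromal and endothelial markers (4 of 6) summed to under 1 RPKM in each library.

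Genes were joined to a gained peak when theirs was the nearest protein-coding start to it and lay within 50 kb. That gave 6411 gained peaks next to 3674 genes, of which 2559 passed the expression minimum. The chromatin was taken at 24 h, and the RNA was measured independently of the choice of peaks. At 24 h against 0 h, 1098 of these genes were higher (42.9%) and 895 lower (35.0%), beside 39.9% higher and 37.3% lower among all 9942 tested genes. At 4 h the tilt was larger: 1260 were higher (49.2%) and 991 lower (38.7%), beside 42.5% and 42.7%. At 8 h 44.7% were higher and 38.9% lower, beside 40.7% and 42.1%, and at 16 h 43.0% and 35.7%, beside 39.9% and 36.9%. Called changes of at least 2-fold upward were found in 549 genes at 4 h (21.5%, beside 13.8%) and in 224 at 24 h (8.75%, beside 6.27%). Called changes of at least 2-fold downward were found in 288 genes at 4 h (11.3%, beside 11.5%) and 114 at 24 h (4.46%, beside 5.37%). The share at 24 h is thus near that of all genes, and the share at 4 h is further from it. The 691 tested genes with a listed start and no peak joined to them stood at 42.1% and 40.4% at 4 h, 45.7% and 36.8% at 8 h and 41.7% and 33.4% at 24 h, so at 8 h and 24 h genes next to gained peaks stood close to genes with no peak. Of the 2559 genes, 167 (6.53%) were under 1 RPKM in every 0 h library, beside 5.43% of all tested genes. Such genes passed the expression minimum only through stimulated libraries and so had to differ there, and their changes are a description.

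Scaling every library to an equal number of reads in listed genes (equal-read scaling) shifted all genes down, to a median log2 fold change of -0.43 at 4 h in place of 0.00, and left 31.3% of the genes next to gained peaks higher and 56.3% lower, beside 23.5% and 63.7% of all. Under either scaling the neighbours of gained peaks stood above all genes, with medians of 0.12 against 0.00 and -0.30 against -0.43. At 24 h the scaled shares were 20.01% higher and 62.6% lower, beside 17.0% and 66.2%.

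The number of gained peaks next to a gene went with the share of genes that rose. At 4 h 46.9% of 1524 genes with 1 gained peak were higher, 47.5% of 545 with 2, 52.5% of 238 with 3, 62.0% of 121 with 4 and 66.4% of 131 with 5 or more. In the last class 25.2% were lower and the median log2 fold change was 0.75. At 24 h the shares higher ran from 41.2% with 1 peak to 55.0% with 5 or more. Some genes in these classes passed the expression minimum through stimulated libraries alone, so the shares are a description. With no expression minimum, 44.4% of 1672 genes with 1 peak rose and 42.2% fell at 4 h. With 5 or more peaks, 62.9% of 140 rose and 26.4% fell. Under equal-read scaling, 27.4% rose and 59.8% fell at 4 h with 1 peak, and 55.0% and 36.6% with 5 or more. At 24 h that scaling gave 18.2% and 65.5% with 1 peak, and 25.95% and 46.6% with 5 or more, whose balance thus turned to lower (median -0.11). Genes next to M0-only peaks and no gained peak went the other way: at 4 h 32.5% of 1109 rose and 53.8% fell, and at 24 h 30.7% and 49.9%. The 764 genes next to both gained and M0-only peaks leaned lower, with 41.8% rising and 48.0% falling at 4 h and 35.5% and 45.0% at 24 h. The 1795 genes with gained and no M0-only peaks stood at 52.4% and 34.8%, then 46.1% and 30.7%. Genes next to other M1 peaks only (3606) stood at 40.9% higher and 42.7% lower at 4 h, close to all genes. Among the 212 genes next to a gained peak with M1 H3K18la, 63.7% rose and 25.5% fell at 4 h, against 46.2% and 29.7% at 24 h. Gene length moved with these classes, with estimated medians of 4298 bases at 1 peak, 6450 at 5 or more and 3883 over all tested genes. With the length trend of each library removed, the shares higher at 4 h were 48.2% at 1 peak and 71.0% at 5 or more.

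**Figure D3:**
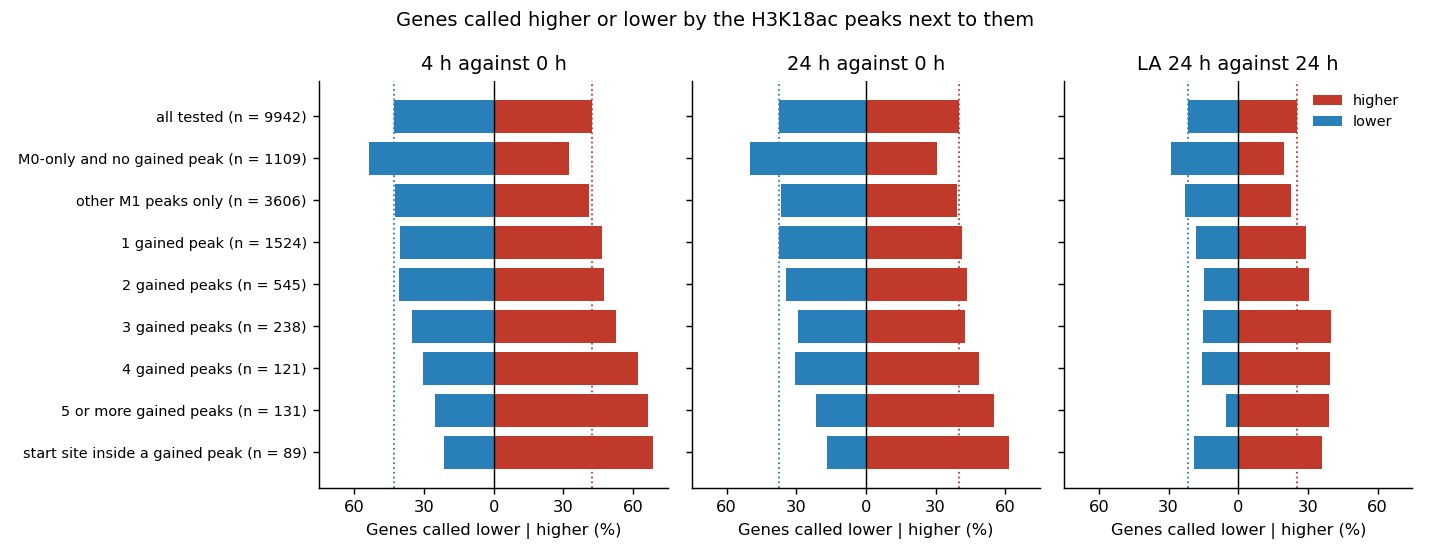
Share of genes (%) called higher (red, to the right) or lower (blue, to the left) at 4 h and 24 h against 0 h and at LA 24 h against 24 h, by the H3K18ac peaks next to the gene; dotted lines mark all tested genes. At 4 h the red share grows from 46.9% with 1 gained peak to 66.4% with 5 or more, and genes next to M0-only peaks lean to the left.

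The genes with most gained peaks showed mainly early responses. Tmem178 and Tmcc3, both transmembrane protein genes, had 17 gained peaks each, Pcgf5, a Polycomb-group gene, 11, and Edn1, which encodes the vasoconstrictor endothelin, and Arhgef3 10 each. Edn1 stood at 0.0138 to 0.0257 RPKM at 0 h, at 113, 124, 127 and 142 RPKM at 4 h and at 0 to 0.0726 RPKM at 24 h. It was thus high in every 4 h library and near 0 at both ends of the time course. Its log2 fold change was 6.96 at 4 h (SE 0.08, adjusted p = 3.3e-35) and 0.02 at 24 h (adjusted p = 0.81). Pcgf5 rose by 3.18 (SE 0.08) at 4 h and 0.66 at 24 h and Arhgef3 by 2.47 (SE 0.07) and 0.41. Tmcc3 rose from 1.13 to 1.72 RPKM at 0 h to 3.84 to 4.34 RPKM at 4 h (1.05, SE 0.09). Its 24 h change (0.25, adjusted p = 0.011) did not pass without 24h replicate 1 or 0h replicate 1, at 0.18. Tmem178 stood at 0.0355 to 0.0687 RPKM at 0 h, 0.364 to 0.563 RPKM at 4 h (0.48, SE 0.05) and 1.73 to 2.42 RPKM at 8 h. Tmem178 and Edn1 passed the expression minimum through the stimulated libraries alone, so their changes and p-values over 0 h are a description. The 24 h changes of Arhgef3 and Tmcc3 turned to -0.032 and -0.056 under equal-read scaling.

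Genes with the start site itself in a gained peak were mostly higher after stimulation. However, 27 of the 89 tested (30.3%) were under 1 RPKM in every 0 h library, among them Lcn2, Upp1, Cp, Cxcl9 and Fabp7. The counts, and the changes and p-values of such genes over 0 h, are therefore a description. Of the 89 genes 61 rose (68.5%) and 19 fell (21.3%) at 4 h, while 55 rose (61.8%) and 15 fell (16.9%) at 24 h, when 20 (22.5%) were at least 2-fold higher and none at least 2-fold lower. Under equal-read scaling, the shares at 24 h were 38.2% higher and 41.6% lower, beside 17.0% and 66.2% of all genes. The gene with the largest rise was Lcn2, which encodes the iron-binding secreted protein lipocalin-2 and whose start lay in a 2090-bp peak (chr2:32387401-32389490, fold enrichment 3.03). It stood at 0.298, 0.468, 0.476 and 0.524 RPKM at 0 h, 171 to 195 RPKM at 4 h and 397, 475, 513 and 739 RPKM at 24 h. The groups did not overlap, and the log2 fold change was 6.99 at 4 h and 8.49 at 24 h (SE 0.11, adjusted p = 4.2e-33).

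Marco encodes a scavenger receptor for bacteria, and 4 gained peaks lay next to it, of which one (chr1:120504981-120505901, fold enrichment 2.86) held the start. It went from 5.01 to 9.19 RPKM at 0 h through 27.8 to 37.5 RPKM at 4 h to 214, 229, 240 and 327 RPKM at 24 h. Each group lay above the one before, with a log2 fold change of 5.05 at 24 h (SE 0.14, adjusted p = 7.2e-25). Upp1, the uridine phosphorylase gene, had its start in a peak of chr11:9114283-9119965. It went from 0.0832, 0.111, 0.126 and 0.136 RPKM at 0 h to 19.1 to 23.8 RPKM at 4 h and 17.97 to 24.1 RPKM at 24 h, so that it stayed high (4.33 and 4.29, SE 0.12). Cp, which encodes the ferroxidase ceruloplasmin, behaved alike, from 0.117 to 0.203 RPKM at 0 h to 11.5 to 15.1 at 4 h and 8.13 to 10.5 at 24 h (3.599 and 3.16, SE 0.07).

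AA467197, the host gene of Mir147, had an early peak of RNA. It stood at 2.17 to 2.76 RPKM at 0 h, 147 to 178 RPKM at 4 h and 26.5, 27.2, 27.2 and 43.8 RPKM at 24 h, with log2 fold changes of 5.60 and 3.18 (SE 0.11). Cxcl9, an IFNg-induced chemokine for T cells, fell into the same order with a wide spread at 24 h (17.6 to 25.8 RPKM at 4 h, and 3.69, 6.01, 6.65 and 13.5 RPKM at 24 h, against 0.112 to 0.275 RPKM at 0 h). Ifi209, an interferon-inducible DNA sensor family gene, rose by 3.77 at 4 h and 1.87 at 24 h (SE 0.10). Fabp7, a fatty acid-binding protein gene, rose later, from 0.453 to 0.764 RPKM at 0 h to 2.98 to 3.96 RPKM at 4 h and 9.23 to 15.1 RPKM at 24 h (1.497 and 2.95, SE 0.10). Gm12185, at one of the strongest gained peaks, stood at 2.94 to 4.22 RPKM at 4 h and under 0.5 RPKM in every library of the other groups. It passed the expression minimum through the 4 h libraries alone, so its 4 h change (1.85) is a description. Its 24 h change of 0.09 (adjusted p = 0.14) passed at 0.24 with the length trend removed and at 0.14 without 24h replicate 4.

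**Figure D4:**
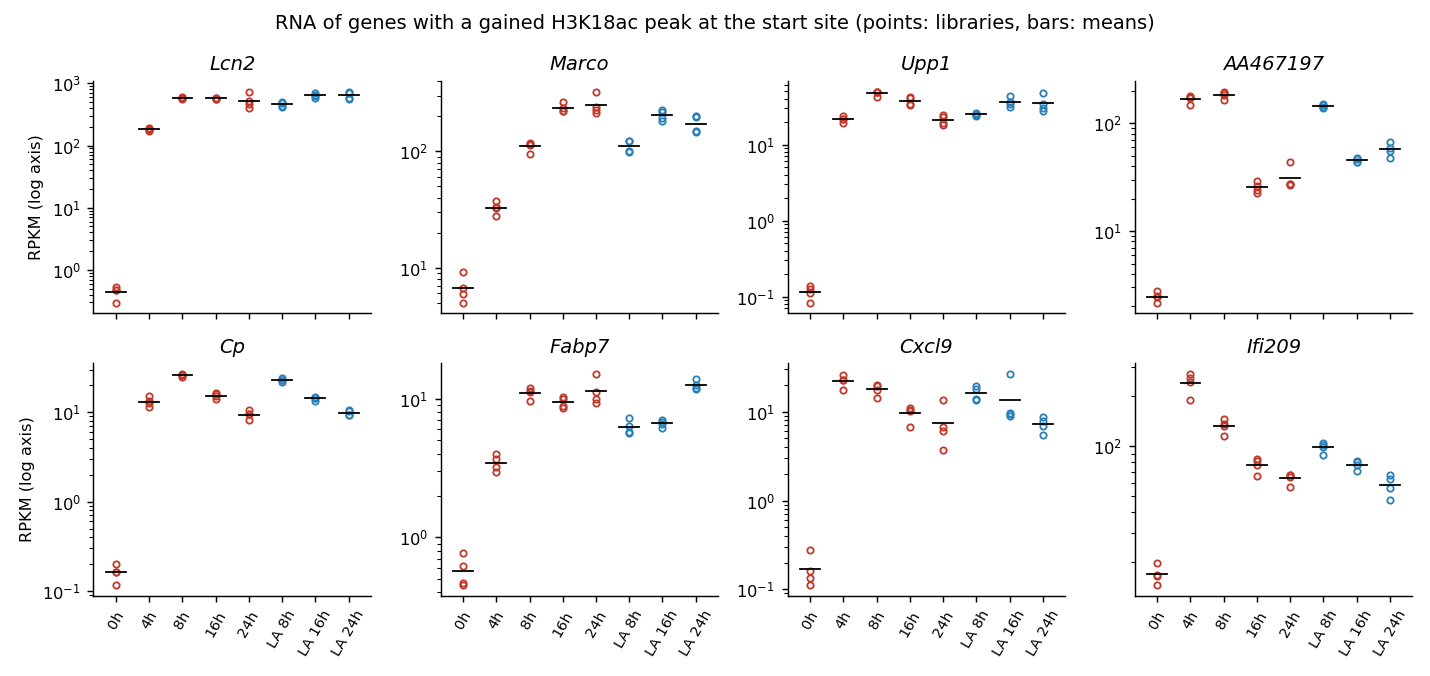
RPKM (log axis) of 8 genes with a gained H3K18ac peak at the start site, by group; circles are libraries (red without, blue with added lactic acid) and bars are means. Every library after stimulation lies above every 0 h library in all 8 genes.

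S100a8, a calprotectin subunit gene abundant in neutrophils, also had a gained peak over its start (chr3:90668936-90669504, fold enrichment 3.49). It stood at 2.37 to 4.40 RPKM at 0 h, 15.8 to 21.7 at 4 h and 12.9 to 20.3 at 24 h (2.13 and 1.87, SE 0.15). Of 8 neutrophil and precursor markers 4 are listed in the table, S100a8 among them. Their summed level was 10.1 to 15.6 RPKM at 0 h and 21.8 to 34.4 RPKM at 24 h, beside 21060 to 23550 and 38430 to 51100 RPKM for the macrophage markers. The sum rose while the number of these markers with a mean of 1 RPKM or more went from 3 at 0 h to 2 at 24 h. The part of neutrophils in the rise of S100a8 was not tested, and in bulk samples more cells of a type and more RNA per cell cannot be told apart.

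Only genes with a listed start could be joined to a peak, and 2559 of the 7965 tested genes with one (32.1%) were next to a gained peak. Listed inflammatory mediators were next to gained peaks in 11 of the 23 members with a listed start (34 in all), with 33 gained peaks between them. At 4 h 10 of the 11 were higher and 1 lower (median log2 fold change 6.99), and at 24 h again 10 and 1 (2.73). All 32 tested members, with or without such a peak, had medians of 6.97 and 1.84 (30 higher and 2 lower at 4 h, 29 and 2 at 24 h), so the members next to gained peaks did not stand apart at 4 h by these medians. Il1b, the interleukin-1 beta gene, had 5 gained peaks, 19776 to 39036 bp from its start. It stood at 0.581, 0.581, 0.599 and 0.752 RPKM at 0 h, 1986 to 2102 RPKM at 4 h and 28.5, 45.2, 50.3 and 66.3 RPKM at 24 h, which places 24 h between the other groups. Its log2 fold changes were 10.28 and 4.84 (SE 0.22, adjusted p = 5.5e-19 at 24 h). Il1b was under 1 RPKM in every 0 h library, as were Ptges, Ptgs2, Il12b, Slc7a11 and Socs3 below. These genes passed the expression minimum through stimulated libraries alone, so their changes over 0 h are a description. Il1a, the interleukin-1 alpha gene, had 2 gained peaks (8.15 and 2.64, SE 0.15).

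Of the prostaglandin pathway, Ptgs2, the inducible cyclooxygenase gene, and Ptges, the gene of the prostaglandin E synthase that acts after it, had 7 gained peaks each, as many as Pfkfb3 and Slc7a11 below. The Ptges peaks lay 2156 to 16789 bp from its start, and that at chr2:30912325-30915522 (fold enrichment 5.25) overlapped M1 H3K18la. Ptges stood at 0.293 to 0.474 RPKM at 0 h, 80.9 to 90.3 RPKM at 4 h and 21.3, 24.0, 26.1 and 27.2 RPKM at 24 h (6.00 and 4.24, SE 0.07). Ptgs2 stood at 0.188 to 0.263 RPKM at 0 h, 434 to 471 RPKM at 4 h and 2.85, 3.48, 3.57 and 4.38 RPKM at 24 h (8.54 and 1.89, SE 0.15). Both were above their 0 h libraries in every later library, and Ptgs2 had lost most of its early level by 24 h.

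Saa3, an acute-phase serum amyloid gene, had 1 gained peak 8245 bp from its start and the largest 24 h rise of any gene next to a gained peak, from 10.2 to 16.9 RPKM at 0 h to 54650 to 97140 RPKM at 24 h (12.30, SE 0.16). Il12b, the gene of the shared subunit of interleukin-12 and interleukin-23, stood at 0 to 0.0306 RPKM at 0 h, 119 to 146 RPKM at 4 h and 0.540 to 0.856 RPKM at 24 h (7.03 and 0.71, SE 0.09). Ccl9, a chemokine gene, rose by 2.54 and 1.14 (SE 0.10). The member that fell was Cd80, a costimulatory ligand gene, by 0.25 at 4 h and 0.28 at 24 h (SE 0.07, adjusted p = 0.0010).

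Interferon-stimulated genes were next to gained peaks in 15 of the 26 members with a listed start (32 in all). All 15 were higher at 4 h (median 3.96, and 3.96 over the 32 tested, all of which rose), and 13 were higher and none lower at 24 h (0.68, against 0.81 over the 32, of which 28 were higher and 1 lower). The guanylate-binding protein genes, GTPases that act against intracellular microbes, had 11 gained peaks on chromosome 3, 4 each nearest to Gbp2 and Gbp3, 2 to Gbp5 and 1 to Gbp7. Gbp2 went from 14.1 to 18.4 RPKM at 0 h to 769 to 951 RPKM at 4 h and 35.9 to 47.1 RPKM at 24 h (5.69 and 1.27, SE 0.08). Gbp5 rose by 6.58 at 4 h and 0.86 at 24 h (SE 0.11). The Gbp genes are close relatives, so reads of one may be counted for another. Ifit3, an antiviral effector gene with 3 gained peaks, of which the one 359 bp from its start overlapped M1 H3K18la, rose by 3.96 and 0.93 (SE 0.14). Rsad2, the gene of the antiviral enzyme viperin, rose by 6.58 at 4 h (SE 0.15) and 0.61 at 24 h, where it did not pass under equal-read scaling (0.14).

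Irf7, the interferon amplifier gene, was the listed member with the largest 24 h change among these, from 33.3 to 46.9 RPKM at 0 h to 356 to 394 RPKM at 4 h and 529, 588, 590 and 687 RPKM at 24 h (3.22 and 3.89, SE 0.08). Gbp7 (0.11, adjusted p = 0.54) and the GTPase gene Irgm1 (-0.15, adjusted p = 0.069) did not pass at 24 h, and each passed without some single library: Gbp7 at 0.35 without 24h replicate 4, and Irgm1 at -0.20 without 24h replicate 3 or 0h replicate 1. Irgm1 also passed at -0.62 under equal-read scaling. Jak2, with 9 gained peaks that include the strongest, went from 5.40 to 6.40 RPKM at 0 h to 72.8 to 80.3 RPKM at 4 h and 10.4 to 13.0 RPKM at 24 h (3.53 and 0.90, SE 0.07). Crkl rose by 0.85 at 4 h (SE 0.10) and changed by -0.25 at 24 h (adjusted p = 0.029), a call that was lost at -0.10 without 24h replicate 4 and also without 24h replicate 2, 0h replicate 2 or 0h replicate 3, in a fit of only the groups compared (-0.25) and with the length trend removed (-0.19).

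**Figure D5:**
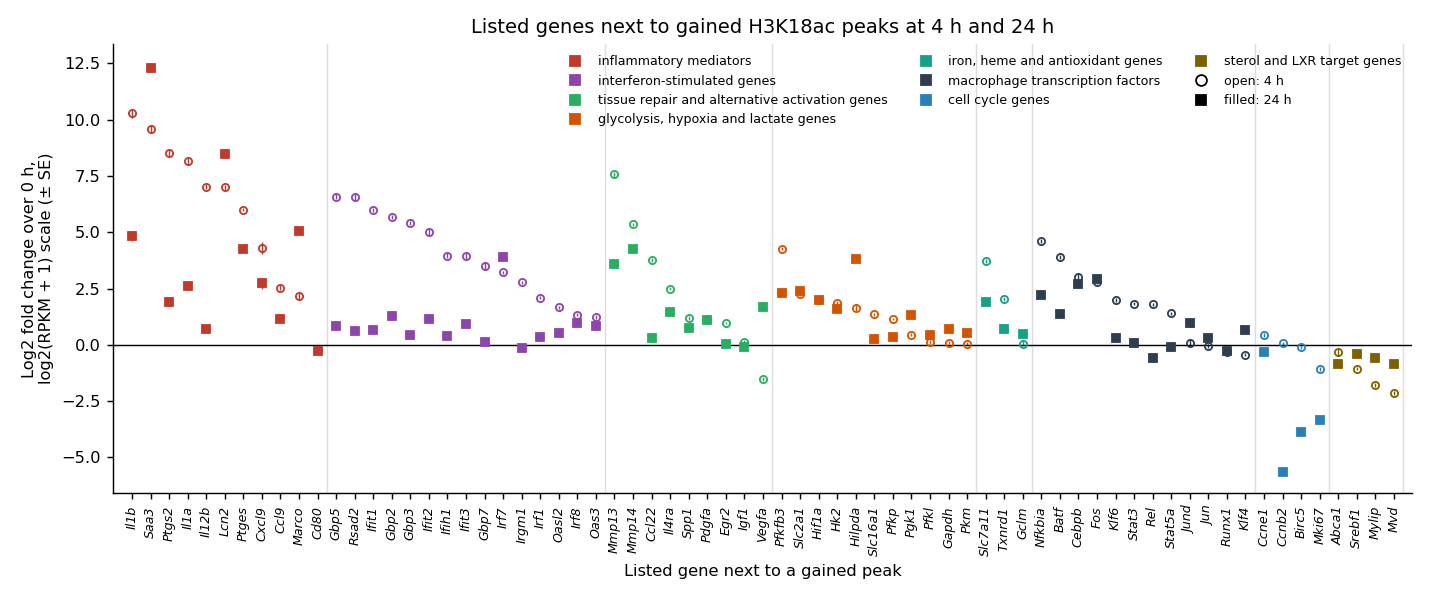
Log2 fold changes over 0 h on the log2(RPKM + 1) scale (± SE) of every listed gene next to a gained peak, at 4 h (open circles) and 24 h (filled squares), coloured by list. Inflammatory and interferon-stimulated genes lie above 0 at 4 h except Cd80, and cell cycle and sterol genes lie below 0 at 24 h.

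Glycolysis, hypoxia and lactate genes were next to gained peaks in 11 of the 24 members with a listed start (25 in all), and all 11 were higher at 24 h (median 1.33, against 1.14 over the 25, of which 24 were higher). At 4 h 8 were higher and none lower (1.37, against 0.44 over the 25, with 15 higher and 4 lower). Pfkfb3, whose enzyme makes the main activator of phosphofructokinase, had 7 gained peaks, and the one closest to its start (chr2:11507398-11510790) overlapped M1 H3K18la. It stood at 2.64 to 3.24 RPKM at 0 h, 68.1 to 80.1 RPKM at 4 h and 16.4 to 20.4 RPKM at 24 h (4.27 and 2.29, SE 0.08). Hilpda, a hypoxia-inducible lipid droplet gene with 4 gained peaks, went from 3.56 to 4.67 RPKM at 0 h through 13.6 to 17.0 RPKM at 4 h to 58.7, 61.0, 66.6 and 100.9 RPKM at 24 h (3.81, SE 0.12). Slc2a1, the glucose transporter gene, rose by 2.25 and 2.40 (SE 0.09) and Hif1a, the gene of the hypoxia factor itself, by 1.99 and 1.98 (SE 0.09), both with 3 gained peaks. Hk2, a hexokinase gene, rose by 1.87 and 1.58, and Pgk1, of the phosphoglycerate kinase, by 0.45 and 1.33 (both SE 0.08), although Pgk1 at 4 h turned to -0.077 under equal-read scaling.

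Tissue repair and alternative activation genes were next to gained peaks in 9 of the 17 members with a listed start (24 in all), of which 7 were higher and 1 lower at 4 h (median 1.19) and 7 higher and none lower at 24 h (1.11). Over the 21 tested the medians were 1.16 and 0.76, with 15 higher and 3 lower, then 14 and 4. The matrix protease genes Mmp13 and Mmp14 led: Mmp13 went from 2.95 to 3.75 RPKM to 742 to 958 RPKM at 4 h and 47.0 to 56.7 RPKM at 24 h (7.57 and 3.58, SE 0.10), and Mmp14 rose by 5.36 and 4.24 (SE 0.07). Vegfa, a blood vessel growth factor gene, fell by 1.53 at 4 h and rose by 1.66 at 24 h (SE 0.10). Igf1, a growth factor gene with 5 gained peaks of which 1 reached a fold enrichment of 4.87, did not pass at either time (0.14, adjusted p = 0.059, and -0.10, adjusted p = 0.18). At 4 h Igf1 passed at 0.16 to 0.18 without 4h replicate 1, 0h replicate 1 or 0h replicate 4, and at 24 h at -0.16 without 24h replicate 1. It also passed at 4 h with the length trend removed (0.25), in a fit of only the groups compared (0.14) and, turned, under equal-read scaling (-0.38), and at 24 h under that scaling (-0.57).

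Macrophage transcription factors and their inhibitors were next to gained peaks in 12 of the 24 members with a listed start (33 in all), with 8 higher and 2 lower at both times (medians 1.81 and 0.49, as over the 32 tested at 1.81 and 0.48, with 23 and 22 higher and 7 and 6 lower). Nfkbia, the gene of the inhibitor that ends NF-kB signalling, rose by 4.62 and 2.195 (SE 0.07). Batf, an AP-1 family gene, rose by 3.89 and 1.35 (SE 0.08) and Fos, an AP-1 subunit gene, by 2.78 and 2.92 (SE 0.07). Rel, an NF-kB subunit gene with 4 gained peaks, rose by 1.80 at 4 h and fell by 0.60 at 24 h (SE 0.08). Klf4, a zinc finger factor gene, had a 16931-bp gained peak with M1 H3K18la 41008 bp from its start (chr4:55474537-55491467, fold enrichment 4.56) and fell by 0.44 at 4 h but rose by 0.67 at 24 h (SE 0.07). Runx1, a Runt factor gene with 2 gained peaks and 7 M0-only peaks, fell at both times (-0.33 and -0.29, SE 0.06), at 24 h not past the threshold with the length trend removed (-0.07). Stat3, a cytokine signalling factor gene, rose at 4 h (1.82, SE 0.06) and did not pass at 24 h (0.08, adjusted p = 0.23), where it passed at 0.29 with the length trend removed and turned to -0.37 under equal-read scaling.

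Of 16 iron, heme and antioxidant genes, 11 had a listed start and 3 were next to gained peaks, Slc7a11, Txnrd1 and Gclm, and all 3 were higher at 24 h (2 at 4 h), with 12 higher and 3 lower over the 16 at 24 h. Slc7a11, the cystine transporter gene, had 7 gained peaks, all inside the gene span, and went from 0.0657 to 0.310 RPKM to 12.9 to 16.4 RPKM at 4 h and 3.15 to 3.86 RPKM at 24 h (3.72 and 1.92, SE 0.09). Socs3, the gene of a feedback inhibitor of cytokine receptors, had 1 gained peak and rose from 0.734 to 0.946 RPKM to 498 to 542 RPKM at 4 h and 55.8 to 69.0 RPKM at 24 h (8.14 and 5.09, SE 0.07). Other genes next to gained peaks with large 24 h rises were Cd38, of an NAD-consuming surface enzyme (5.21, SE 0.06), Ccl8, a monocyte chemokine (4.75, SE 0.17), and Klra2, of the lectin-like receptor family (4.24, SE 0.08), whose relatives may share reads.

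Some genes next to gained peaks fell. All 4 cell cycle genes joined to a gained peak, of 15 with a listed start, were lower at 24 h (median -3.604, against -3.17 over 20 tested, of which 18 were lower and 2 higher). They were Ccnb2, a mitotic cyclin gene (-5.63, SE 0.07), Birc5, the survivin gene (-3.89, SE 0.07), Mki67, a proliferation marker (-3.32, SE 0.09), and Ccne1, a cyclin gene of entry into DNA synthesis (-0.30, SE 0.08). Ccne1 had 6 gained peaks, among them an 18252-bp peak with M1 H3K18la (chr7:38118154-38136405, fold enrichment 7.31). It stood at 2.79, 2.94, 3.82 and 4.24 RPKM at 0 h and 2.35, 2.58, 2.58 and 2.86 RPKM at 24 h, so that these groups overlapped. At 4 h 1 of the 4 cell cycle genes was higher and 1 lower (median -0.026, against -0.401 over the 20, with 3 higher and 11 lower). Ccne1 was the gene higher at 4 h, a call lost at 0.018 under equal-read scaling. The 4 sterol and LXR target genes next to gained peaks were lower at both times, Abca1 at 4 h barely so (medians -1.42 and -0.70, against -1.25 and -0.83 over 16 tested, of which 13 and 15 were lower and 1 higher). The next-to-peak genes, of 10 members with a listed start, were Mvd, of sterol synthesis (-2.13, SE 0.10, and -0.84), Mylip, of a ligase for the LDL receptor (-1.78, SE 0.08, and -0.57), Srebf1, the lipogenic factor (-1.06, SE 0.06, and -0.40) and Abca1, the cholesterol exporter (-0.34, SE 0.16, adjusted p = 0.048, and -0.83). The 4 h call of Abca1 was lost without any one of 4h replicates 1, 2 and 4 or 0h replicates 2, 3 and 4, at -0.21 to -0.36. It was also lost with a replicate block (-0.34), a pseudocount of 0.1 (-0.36) or the length trend removed (-0.23). The largest falls at 24 h beyond these lists were in Fads2, a fatty acid desaturase gene (-2.91, SE 0.12), Sun2, of a nuclear envelope protein (-2.40, SE 0.05), Rrm1, a ribonucleotide reductase gene (-2.17, SE 0.06), Serinc3 (-2.03, SE 0.05) and Gpx3, a glutathione peroxidase gene (-1.98, SE 0.08).

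With added lactic acid the shares of genes next to gained peaks stood on the higher side of those of all genes. Genes with a gained peak at the start leaned lower at LA 8h, as did genes with no peak joined to them. At LA 8h against 8h 39.2% of the 2559 were higher and 28.2% lower, beside 32.1% and 36.0% of all tested genes. At LA 16h against 16h the shares were 39.0% and 22.0%, beside 30.2% and 31.0%, and at LA 24h against 24h 31.4% and 16.5%, beside 25.5% and 21.7%. Of the 89 genes with the start in a gained peak, 19 were higher (21.3%) and 41 lower (46.1%) at LA 8h, with 24.7% and 28.1% at LA 16h and 36.0% and 19.1% at LA 24h. The 212 genes next to a gained peak with M1 H3K18la stood at 34.9% and 35.4% at LA 8h. The 691 tested genes with a listed start and no peak joined to them stood at 22.4% and 45.6%. Estimated median lengths were 3008 bases in these 691 and 3324 in the 89 genes with the start in a gained peak. With the length trend removed, the LA 8h shares of the 2559 came to 32.2% and 31.3%, beside 29.6% and 34.4% of all tested genes. For genes with 5 or more gained peaks they came to 32.8% and 27.5% in place of 50.4% and 19.8%. For the 89 genes with the start in a gained peak they came to 20.2% and 36.0%. At LA 24h the shares of the 2559 were 36.0% and 16.1%, beside 28.4% and 22.5%. Under equal-read scaling, LA 24h gave 13.5% higher and 37.6% lower, beside 10.4% and 46.4%.

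Ptgs2 had the largest change with lactic acid among the genes named here, from 2.85, 3.48, 3.57 and 4.38 RPKM at 24 h to 13.9, 15.5, 16.1 and 25.8 RPKM at LA 24h (log2 fold change 2.02, SE 0.15, adjusted p = 4.3e-12). Il1b went from 28.5 to 66.3 RPKM to 104, 142, 216 and 301 RPKM (1.93, SE 0.22, adjusted p = 2.6e-08). Hilpda went from 58.7 to 100.9 RPKM to 203, 216, 259 and 306 RPKM (1.78, SE 0.12). In these 3 genes no LA 24h library lay below the highest 24 h library. Mmp13 (1.18, SE 0.10), Slc2a1 (1.07, SE 0.09), Vegfa (0.96, SE 0.10), AA467197 (0.88, SE 0.11), Slc7a11 (0.85, SE 0.09), Pfkfb3 (0.82, SE 0.08), Upp1 (0.68, SE 0.12) and Igf1 (0.52, SE 0.07) were also higher. Marco (-0.54, SE 0.14), Mmp14 (-0.46, SE 0.07) and Cd38 (-0.46, SE 0.06) were lower. Whether the effect differed between genes next to gained peaks and other genes was described by these shares only. The LA 24h comparison shares its 24 h libraries with the 24 h comparison above.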

How the data were processed

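Histone marks (ChIP-seq after MNase digestion, with spike-in chromatin) and mRNA were measured in 38 samples, 6 ChIP or input libraries and 32 RNA libraries. The submitters' processing notes name Bowtie2 2.2.6, HISAT2 2.1.0, SAMtools 0.1.19, MACS2 2.2.1, featureCounts 1.5.0-p1 and the builds mm10 and GRCm38, with no role or order. Per the file headers the deposited broad peak lists give each peak's score, fold enrichment (a ratio) and -log10 p and q, which are the authors' values. The deposited RNA table holds RPKM of 11184 genes, which are only part of all genes, beside the authors' log2 fold changes, log2 CPM and p-values, which were not used. The deposited spike-in table holds read counts.

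Peaks were compared with bedtools 2.31.1 (any shared base). Each peak was joined to the nearest protein-coding start of RefSeq (GRCm38.p6) within 50 kb; 17492 of 21887 coding genes have a listed start, and peaks nearest to another gene were left unjoined. Promoter and miRNA sequences are RefSeq's, and 11138 of the 11184 listed symbols matched. RNA was tested with limma 3.58.1 (R 4.3.3; trend) on log2(RPKM + 1) over all 32 libraries, for the 9942 genes that reached 1 RPKM in 4 or more libraries, with Benjamini-Hochberg adjustment at 0.05 over all of them. The fit was also run on simulated 0 h and 24 h groups of 4 libraries, with 200 of 9942 genes changed 2-fold. It recovered 100% of these genes, and 4.31% of its calls were false. Far fewer genes changed there than in the data, and the fit held fewer libraries, so the calls above were not tested by it. Other scripts used Python 3.11.15, pandas 2.3.3 and scipy 1.17.1.

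The members, gene lists and tests were chosen with earlier results of these data known. Genes are named where they are list members next to a gained peak, have a start in one, are among the 10 highest or 5 lowest called at 24 h, or have the most gained peaks; Jak2, Crkl, Mir155hg and the promoters printed were chosen after their values were seen. Alternatives covered peak overlap, peak threshold, joining distance, pseudocount, filter, scaling, gene length, samples in the fit, a replicate block and each library left out.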

Additional observations from a re-analysis of the deposited data

Results flagged for a closer look

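Within groups of 4 libraries, 15 of 308 groups checked over the genes named had a library whose gap to the nearest other exceeded Dixon's 95% critical value as a share of the range; chance gives about 1 in 20 groups. At 0 h, Mir155hg was 0.00813 RPKM in replicate 1 against 0 in the others, Il1b 0.752 in replicate 2 against 0.581 to 0.599, Tmem178 0.0687 in replicate 1 against 0.0355 to 0.0380, and Slc2a1 14.0 in replicate 4 against 18.7 to 19.4. At 4 h, Mir155hg was 3.78 RPKM in replicate 2 against 2.96 to 2.99, Il1b 2102 in replicate 1 against 1986 to 1998, Rel 16.0 in replicate 2 against 15.0 to 15.1, and Fos 21.1 in replicate 1 against 19.8 to 19.9. At 8 h, Upp1 was 42.5 RPKM in replicate 2 against 49.0 to 49.7. At 24 h, AA467197 was 43.8 RPKM in replicate 4 against 26.5 to 27.2 and Ccl9 1087 in replicate 2 against 727 to 787. With lactic acid, Cxcl9 was 26.5 RPKM in LA 16h replicate 1 against 8.88 to 9.74, Il1a 15.3 in LA 24h replicate 4 against 9.95 to 10.4, Pgk1 1698 in LA 24h replicate 1 against 1321 to 1356, and Klf4 7.68 in LA 24h replicate 3 against 6.54 to 6.72.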

How the results depend on the processing

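Peaks come from 1 library per mark and state, so no alternative replaces a replicate. At a -log10 q of at least 5, 1553 gained peaks remained. The share overlapping M1 H3K18la was 5.31% with H3K18la peaks extended by 1000 bp, 0.832% where at least 50% had to be covered and 29.2% at a -log10 q of at least 5; for M0 H3K18la these were 0.648%, 0.288% and 0.773%. The share at a start was 4.57% within 2500 bp, 1.37% with the start inside and 3.99% at a -log10 q of at least 5.

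Counts of higher and lower genes fell with fewer genes joined. Within 10 kb (1329 genes) they were 697 and 478 at 4 h, 649 and 475 at 8 h, 620 and 450 at 16 h, 610 and 427 at 24 h, 496 and 401 at LA 8h, 512 and 297 at LA 16h and 432 and 216 at LA 24h. At a -log10 q of at least 5 (523 genes) they were 277 and 176, 245 and 200, 241 and 188, 220 and 181, 198 and 164, 203 and 127, and 161 and 80. Under equal-read scaling 801 were higher at 4 h, and 705 higher and 1510 lower at 8 h, 630 and 1467 at 16 h, 512 and 1601 at 24 h and 345 and 963 at LA 24h; of the called genes next to gained peaks 35.7% were then higher at 4 h and 24.2% at 24 h. Fitting only the groups compared gave 442 and 194 at LA 24h. Joining by the nearest gene span and using the starts of all genes were added after seeing the data. With the gene span (3420 genes) the upward tilt shrank. For 4 h, 46.75% rose and 40.56% fell, and the median log2 fold change was 0.064 in place of 0.125. For 8 h the split was almost even, at 42.05% rising and 41.52% falling (median 0.003). For 24 h it was 41.49% and 36.37%. The starts of all genes (1891 genes) kept the tilt. They gave 49.81% and 38.45% for 4 h, and 45.48% and 38.23% for 8 h.

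Leaving out each library gave 1234 to 1249 higher and 972 to 980 lower at 4 h, 1124 to 1138 and 973 to 993 at 8 h, 1069 to 1088 and 861 to 925 at 16 h, 1052 to 1109 and 854 to 917 at 24 h, 934 to 987 and 657 to 719 at LA 8h, 906 to 1049 and 466 to 577 at LA 16h and 718 to 864 and 357 to 538 at LA 24h. With a replicate block the counts were 1259 and 989 at 4 h, 1090 and 891 at 24 h and 797 and 420 at LA 24h, and the 4 h call of Abca1 was lost (-0.34); same-numbered libraries did not deviate together in every pair of any comparison (0 to 3 of 4 pairs), so the numbers were not taken to pair samples. Of the values of named genes under these settings, 2790 kept direction and side of the threshold, 66 lost the call, 33 gained one and 9 turned. Under equal-read scaling these were Sun2 (-0.42), Igf1 (-0.38), Pgk1 (-0.077) and Ccnb2 (-0.46) at 4 h and Tmcc3 (-0.056), Arhgef3 (-0.032) and Stat3 (-0.37) at 24 h. With the length trend removed they were Mir155hg (-0.23) and Tmem178 (-0.23) at 24 h. The cause was not tested.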
